A study of Mus musculus with 6 samples.

Results

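The circadian clock genes described here are 10 genes of the array, Arntl, Clock, Per1, Per2, Per3, Dbp, Nr1d1, Nr1d2, Bhlhe40 and Bhlhe41, taken as every non-control probe that carries 1 of these names. They hold 23 of the array's 56605 probes. RNA came from 3 skin tumours labelled P2ry6-/- (knockout) and 3 labelled P2ry6+/+ (wild-type), all from male mice. Per the labels, every mouse had received 195 nmol of the mutagen 7,12-dimethylbenz[a]anthracene (DMBA) once and then TPA, which promotes tumour growth, at 16 nmol per dose and 2 doses a week up to week 22. Each genotype had 12 mice. The labels number the tumours but do not tie each one to its own mouse, so the p-values here measure the spread between these tumours, which may be in part technical. Age, strain and the hour at which each tumour was taken are not given in the sources used here, nor is the part of P2ry6 that was removed or the cells that lack it.

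The circadian clock is a loop of transcription that runs in most cells, skin included. ARNTL (also called BMAL1) and CLOCK pair up and bind E-boxes, and so switch on the Per, Cry, Nr1d and Dbp genes. PER and CRY proteins then shut ARNTL and CLOCK down, while the NR1D receptors repress Arntl itself. In skin, these genes cycle over the day in keratinocytes and in hair follicles, so a level measured once depends on when the sample was taken.

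The promoters of the clock genes that hold a textbook clock motif are shown first, since the genes described below are wired to each other through such motifs. Of the 10 genes, 8 had promoter windows in the RefSeq table of build GRCm38.p6; Per2 and Bhlhe40 had none matched. In each window the 250 bases before the gene's start were searched on both strands for the E-box CACGTG, the related E-prime box CACGTT, the D-box TTATGTAA or TTACGTAA, to which DBP binds, and the ROR response element, to which the NR1D receptors bind; the first 3 share no full match with each other. Capitals mark E-boxes, E-prime boxes and D-boxes, and sequences read 5′ to 3′ on the gene's strand.
Per1 (chr11:69098699-69098948, plus strand): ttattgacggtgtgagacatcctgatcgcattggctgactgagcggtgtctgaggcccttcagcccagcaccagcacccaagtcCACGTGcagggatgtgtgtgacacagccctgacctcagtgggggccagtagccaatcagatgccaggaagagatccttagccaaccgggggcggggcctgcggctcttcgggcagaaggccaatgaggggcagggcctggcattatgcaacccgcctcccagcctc
Bhlhe41 (chr6:145865421-145865670, minus strand): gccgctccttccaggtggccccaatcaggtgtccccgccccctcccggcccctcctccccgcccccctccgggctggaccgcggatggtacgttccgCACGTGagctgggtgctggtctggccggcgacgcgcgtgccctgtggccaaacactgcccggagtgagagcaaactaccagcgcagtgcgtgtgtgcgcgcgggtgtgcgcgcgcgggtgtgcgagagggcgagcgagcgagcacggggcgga
Nr1d1 (chr11:98775378-98775627, minus strand): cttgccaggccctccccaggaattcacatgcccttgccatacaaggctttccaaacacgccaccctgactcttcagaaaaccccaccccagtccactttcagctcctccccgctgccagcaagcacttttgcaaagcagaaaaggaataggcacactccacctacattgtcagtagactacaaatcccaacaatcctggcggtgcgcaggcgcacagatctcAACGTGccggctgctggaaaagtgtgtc
Per3 (chr4:151044666-151044915, minus strand): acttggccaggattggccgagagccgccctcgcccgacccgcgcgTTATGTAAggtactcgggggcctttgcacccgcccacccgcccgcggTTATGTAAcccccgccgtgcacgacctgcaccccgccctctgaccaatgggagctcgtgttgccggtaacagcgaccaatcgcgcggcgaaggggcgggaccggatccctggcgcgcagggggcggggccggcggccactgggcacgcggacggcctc

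Each E-box lies well upstream, from 166 to 161 bases before the start in Per1 and from 153 to 148 bases before it in Bhlhe41. In Nr1d1 the E-prime box stands close to the start, 28 to 23 bases before it, and is written AACGTG because it lies on the other strand. Per3 holds 2 D-boxes, at 205 to 198 and 158 to 151 bases before its start. The E-box was present in 2 of the 8 clock genes and in 6.86% of all 27025 genes of the table, the E-prime box in 1 of 8 and 4.50%, the D-box in 1 of 8 and 1.095%, and the ROR response element in 0 of 8 and 0.396%. These matches are letters in a window and not measured binding sites. Bases after the start and looser forms of the motifs were not searched, so a count of 0 does not mean that a gene lacks the element.

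Levels are on a log2 scale, relative to the 75th percentile of the processed signal of the array's own non-control probes, so 0 lies at that percentile. Between 54.2% and 59.4% of non-control spots were well above background on each array, and all 6 arrays lay on 1 slide with 1 scan time. The second number of the slide position, 2, 3 and 3 for labelled knockout tumours 1, 2 and 3 and 1, 1 and 2 for labelled wild-type tumours 1, 2 and 3, nearly follows the genotype labels, so that the 2 cannot be told apart well; the first number could be taken as a block. The 75th percentile was 277.1 to 299.6 signal units on the labelled knockout arrays and 322 to 368 on the labelled wild-type arrays. P2ry6 did not check the labels. Its brighter probe read 0.57, 0.70 and 0.45 in labelled knockout tumours 1, 2 and 3 and 0.38, 0.33 and -0.21 in labelled wild-type tumours 1, 2 and 3, a difference of 0.41 (limma adjusted p = 0.450), and the labels do not say whether this probe lies in the removed part. All directions below therefore follow the labels.

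None of the 10 clock genes passed the threshold between genotypes, an adjusted p under 0.05 over all 19752 genes tested (limma, linear model with moderated statistics, two-sided). Of all genes, 0.162% passed. At an unadjusted p under 0.05, 2 of the 10 clock genes stood out, Bhlhe40 and Bhlhe41, against 13.2% of all genes, and both also differed by at least 2-fold, against 4.42%. Bhlhe41 entered the test only through the labelled wild-type arrays, where it was well above background. Among genes well above background on all 6 arrays, 0 of 9 clock genes passed the adjusted threshold, against 0.049%, and 1 of 9 had an unadjusted p under 0.05, against 11.6%. This gene, Bhlhe40, also reached 2-fold, against 2.99%, and 2 of 9 did not overlap between genotypes, against 18.5%. Over all 10, the levels of the 2 genotypes did not overlap for Per3, Bhlhe40 and Bhlhe41, where 19.5% of all genes did not overlap. Of these 3, 2 were higher in the labelled knockout tumours, against 12.1% of all genes, and 1 lower, against 7.36%. Of the 18 tested clock probes 0 passed, against 0.145% of all probes, and 4 did not overlap, against 18.9%. Of the 10 clock genes, 6 had a higher mean in the labelled knockout tumours and 4 a lower one, with a median log2 difference (labelled knockout minus labelled wild-type) of 0.23, against 0.02 over all genes. That median was -0.01 without labelled knockout tumour 2. With 3 tumours against 3, an exact two-sided permutation test cannot give a p below 0.1. In bulk tumours, fewer cells that express a gene and less RNA of it per cell cannot be told apart.

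**Figure D1:**
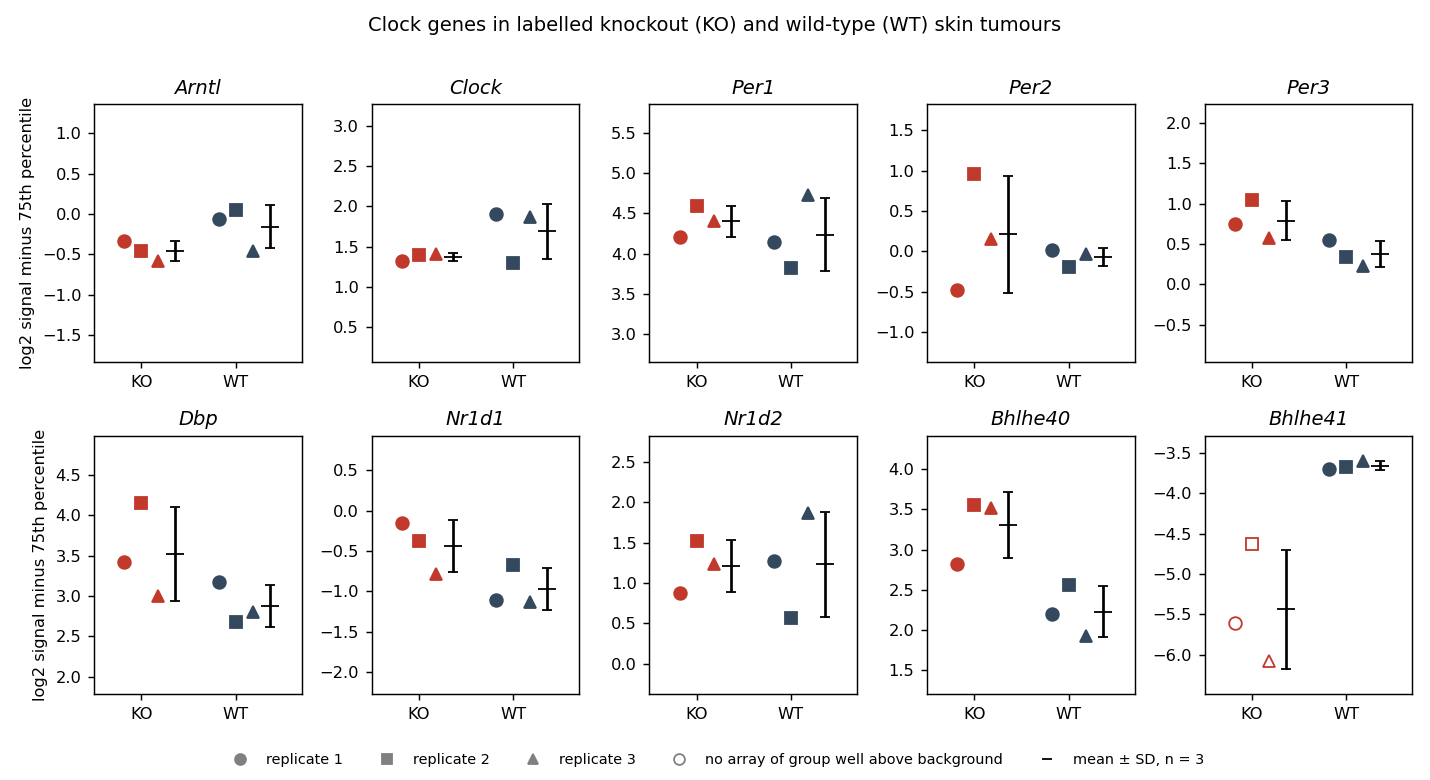
Level of each clock gene in each tumour, as log2 signal minus the array's 75th percentile (vertical axis), with labelled knockout (KO) left of labelled wild-type (WT); symbols stand for replicate numbers and bars for mean ± SD (n = 3). Bhlhe40 and Per3 lie higher in all 3 KO tumours, Bhlhe41 lies lower and its open symbols are not well above background, and Per2 and Dbp reach their highest level in KO tumour 2.

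Bhlhe40 showed the clearest separation among the clock genes with signal on every array. It encodes DEC1, a repressor that competes with ARNTL and CLOCK for E-boxes and that is also switched on by hypoxia and by growth and stress signals. Its 1 probe (chr6:108616309-108616368, plus strand, mm9) read 2.83, 3.55 and 3.52 in labelled knockout tumours 1, 2 and 3. In labelled wild-type tumours 1, 2 and 3 it read 2.20, 2.56 and 1.93. Every labelled knockout tumour lay above every labelled wild-type tumour, and tumours 2 and 3 of the knockout label were the highest. Means were 3.30 ± 0.41 in labelled knockout tumours and 2.23 ± 0.32 in labelled wild-type tumours (SD, n = 3 each). The log2 difference was 1.07 (SE 0.27, 95% interval 0.44 to 1.71, limma adjusted p = 0.224), or 2.10-fold. The exact two-sided permutation test gave p = 0.1. A larger difference in either direction was seen in 5.19% of all genes. Over 17 alternative settings the difference ran between 0.92 and 1.31, with an unadjusted limma p under 0.05 in 17 of 17 and an adjusted p of 0.112 to 0.510. With the first number of the slide position as a block it was 1.04 (adjusted p = 0.285).

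Its paralogue Bhlhe41 encodes DEC2, a repressor of the same E-boxes that is linked to sleep length in mammals, and its values went the other way. At the probe taken (chr6:145806764-145806823, minus strand, mm9) 0 of 3 labelled knockout tumours were well above background, against 3 of 3 labelled wild-type tumours. The dim labelled knockout values were -5.61, -4.63 and -6.08 in tumours 1, 2 and 3, and those of labelled wild-type tumours 1, 2 and 3 were -3.69, -3.67 and -3.60. The labelled wild-type values sit just above the floor of detection too, so only a bound is given, for this probe and the processed signal. By that bound, the mean of Bhlhe41 was at least 1.17-fold lower in the labelled knockout tumours, or 0.22 in log2. For that bound, each labelled knockout array was given its own floor, the dimmest signal of any probe it measured well above background, unless Bhlhe41 itself was brighter. The fit on the dim values gave -1.78 (SE 0.36, limma adjusted p = 0.179), and without labelled knockout tumour 2 it gave -2.19 (adjusted p = 0.0617). With normexp background correction and an offset of 50 the difference was -0.16 (limma adjusted p = 0.555). That offset makes log2 differences between dim signals smaller, so this value cannot be compared with the bound. Whether the bound depends on the background correction was not tested. A second probe (chr6:145812652-145812711, minus strand, mm9) was well above background on 0 of 3 labelled knockout arrays and 2 of 3 labelled wild-type arrays, and was not tested. It read -6.10, -3.87 and -6.23 in labelled knockout tumours 1, 2 and 3, against -3.79, -4.34 and -4.52 in labelled wild-type tumours 1, 2 and 3. The genotypes overlapped there, and no bound could be set.

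Arntl and Clock, which drive the loop, were measured by several probes that leaned the same way by small amounts. At the probe taken for Arntl (chr7:120456978-120457037, plus strand, mm9) the level was -0.33, -0.46 and -0.59 in labelled knockout tumours 1, 2 and 3 and -0.06, 0.04 and -0.46 in labelled wild-type tumours 1, 2 and 3. Labelled wild-type tumour 3 lay inside the range of the labelled knockout tumours. Arntl differed by -0.30 (SE 0.19, 95% interval -0.74 to 0.14, limma adjusted p = 0.541). Its 2 other probes, both dimmer, differed by -0.23 (chr7:120435023-120436706, mm9, a stretch that spans 1684 bases, adjusted p = 0.586 over all probes) and -0.02 (chr7:120439030-120439089, mm9, adjusted p = 0.982). The first of these did not overlap between genotypes: it read -1.86, -2.16 and -2.01 in labelled knockout tumours 1, 2 and 3, against -1.72, -1.82 and -1.81 in labelled wild-type tumours 1, 2 and 3.

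At its brightest probe, Clock was nearly constant among labelled knockout tumours and split among labelled wild-type tumours. Its brightest probe (chr5:76639992-76640051, minus strand, mm9) read 1.32, 1.40 and 1.40 in labelled knockout tumours 1, 2 and 3 and 1.91, 1.29 and 1.87 in labelled wild-type tumours 1, 2 and 3. Labelled wild-type tumour 2 lay below all the others. The difference was -0.32 (SE 0.20, 95% interval -0.80 to 0.17, limma adjusted p = 0.555), and it was -0.52 without labelled wild-type tumour 2 (adjusted p = 0.179). Probes at chr5:76641377-76641436 and chr5:76664578-76664637 (mm9) differed by -0.19 and -0.26, with adjusted p = 0.806 and adjusted p = 0.641 over all probes in limma. One more Clock probe was well above background on 0 arrays.

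The Per genes encode the repressor proteins of the loop, and all 3 had a higher mean in the labelled knockout tumours without passing the test. Per3, the member least needed for the rhythm itself in mice, separated the genotypes at its brightest probe (chr4:150385608-150385667, minus strand, mm9). It read 0.75, 1.05 and 0.58 in labelled knockout tumours 1, 2 and 3 and 0.56, 0.35 and 0.23 in labelled wild-type tumours 1, 2 and 3. The gap between labelled knockout tumour 3 and labelled wild-type tumour 1 was narrow. The difference was 0.41 (SE 0.18, 95% interval -0.03 to 0.85, limma adjusted p = 0.403). A second Per3 probe (chr4:150378473-150378532, mm9) read -0.65, 0.26 and -0.64 in labelled knockout tumours 1, 2 and 3 and -0.81, -0.40 and -0.64 in labelled wild-type tumours 1, 2 and 3, and differed by 0.27 (adjusted p = 0.732 over all probes) with the genotypes overlapping. The other Per3 probe was well above background on 2 of 3 labelled knockout and 1 of 3 labelled wild-type arrays and was not tested.

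Per2 had the widest range between labelled knockout tumours of the 9 clock genes with signal on every array. PER2 is a core repressor whose loss shortens or stops the rhythm in mice. Its detected probe (chr1:93312595-93312654, minus strand, mm9) read -0.48, 0.96 and 0.15 in labelled knockout tumours 1, 2 and 3, a range of 1.44, against 0.01, -0.19 and -0.03 in labelled wild-type tumours 1, 2 and 3, a range of 0.20. Labelled knockout tumours 2 and 1 were thus the highest and the lowest of the 6. The difference of 0.28 (SE 0.35, 95% interval -0.56 to 1.12, limma adjusted p = 0.777) turned to -0.09 without labelled knockout tumour 2. Per1, which also answers quickly to glucocorticoids and growth signals, read 4.21, 4.60 and 4.40 in labelled knockout tumours 1, 2 and 3 and 4.15, 3.83 and 4.72 in labelled wild-type tumours 1, 2 and 3 (chr11:68923364-68923423, plus strand, mm9). Its genotypes overlapped, with a difference of 0.17 (SE 0.26, 95% interval -0.44 to 0.78, limma adjusted p = 0.817) that turned to -0.03 without labelled wild-type tumour 2. A further probe each of Per1 and Per2 was well above background on 0 arrays.

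Dbp encodes a D-box activator, and its transcript is among those that swing most over the day in many tissues. Its brighter probe (chr7:52965265-52965324, plus strand, mm9) read 3.42, 4.15 and 3.00 in labelled knockout tumours 1, 2 and 3, against 3.17, 2.68 and 2.80 in labelled wild-type tumours 1, 2 and 3. Labelled knockout tumour 2 stood highest, and labelled knockout tumour 3 lay inside the range of the labelled wild-type tumours. The difference was 0.64 (SE 0.31, 95% interval -0.11 to 1.39, limma adjusted p = 0.442), a ratio of 1.56, and 12.8% of all genes differed by more. It was 0.33 without labelled knockout tumour 2. The second probe, which lies 3′ of the first on the same transcript (chr7:52965461-52965520, mm9), ran in the same order over the tumours: 2.87, 3.80 and 2.63 in labelled knockout tumours 1, 2 and 3 and 2.79, 2.33 and 2.48 in labelled wild-type tumours 1, 2 and 3. It differed by 0.57 (adjusted p = 0.517 over all probes).

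Nr1d1 and Nr1d2 encode REV-ERB alpha and beta, heme-binding receptors that repress Arntl. Nr1d1 (chr11:98630526-98631028, minus strand, mm9, a stretch that spans 503 bases) read -0.15, -0.37 and -0.79 in labelled knockout tumours 1, 2 and 3 and -1.11, -0.68 and -1.14 in labelled wild-type tumours 1, 2 and 3. Labelled knockout tumours 1 and 2 were the highest, while labelled knockout tumour 3 lay below labelled wild-type tumour 2. The difference was 0.54 (SE 0.23, limma adjusted p = 0.378), a ratio of 1.45, and it kept a positive sign in 17 of 17 alternatives. Nr1d2 did not follow it. Its brightest probe by mean level (chr14:19036568-19036627, minus strand, mm9) read 0.87, 1.52 and 1.24 in labelled knockout tumours 1, 2 and 3 and 1.28, 0.56 and 1.87 in labelled wild-type tumours 1, 2 and 3. Labelled wild-type tumours 2 and 3 held both the lowest and the highest value. The difference was -0.02 (SE 0.35, 95% interval -0.86 to 0.81, limma adjusted p = 0.984), and the other 2 probes gave 0.01 and 0.0011. The sign of so small a difference turned under 5 of 17 alternatives, and its interval runs from a ratio of 0.55 to a ratio of 1.76.

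**Figure D2:**
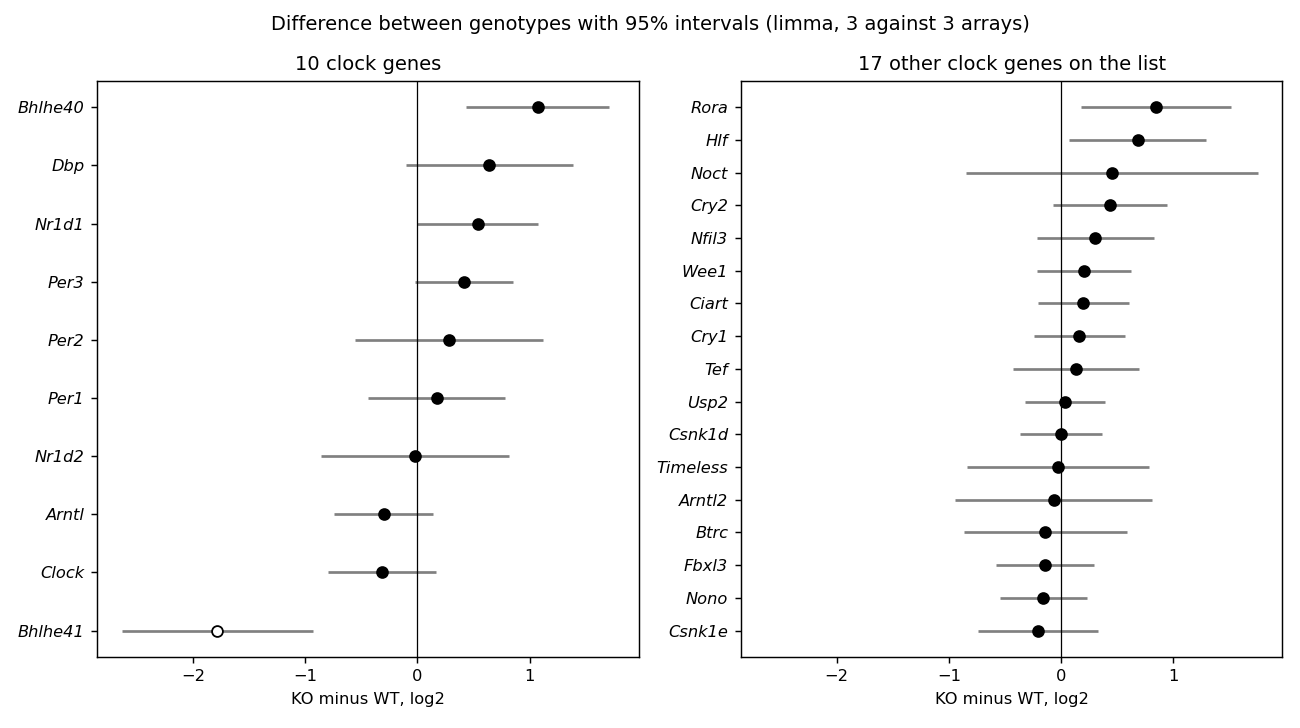
Difference in log2 signal, labelled knockout (KO) minus labelled wild-type (WT), for the 10 clock genes (left) and 17 of the 18 tested genes of a list of other clock genes (right), with 95% intervals from limma. Bhlhe40 (1.07) and Rora (0.84) lie highest in their panels, and the open symbol of Bhlhe41 marks a gene well above background in 0 of 3 KO tumours.

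Set beside each other by tumour, the clock genes were most often at their highest in labelled knockout tumour 2. By the probe taken for each of the 10 genes, 4 genes reached their highest level in that tumour, namely Per2, Per3, Dbp and Bhlhe40, and 0 their lowest. Over all genes tested, 16.9% were highest there. Its clock genes lay above their own 6-tumour means by a median of 0.32, against 0.00 over all genes. Labelled wild-type tumour 2 was the counterpart, with 4 genes at their lowest (Clock, Per1, Dbp and Nr1d2), where 25.5% of all genes were lowest, and a median of -0.24 against -0.07. In this tumour Arntl was at its highest of the 6 at the probe taken, and Dbp at its lowest. The other 2 Arntl probes were highest in labelled wild-type tumour 1. In labelled wild-type tumour 3, 3 genes were at their highest (Nr1d2, Per1 and the dim Bhlhe41), where 22.3% of all genes were highest. Another 3 were at their lowest there (Nr1d1, Per3 and Bhlhe40), where 21.0% of all genes were lowest. The targets of the loop were thus not all high or all low together in that tumour. Among the 9 clock genes well above background on every array, the spread over the 6 tumours was widest for Bhlhe40 (SD 0.67), followed by Dbp (0.53) and Per2 (0.49), and narrowest for Arntl (0.25).

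**Figure D3:**
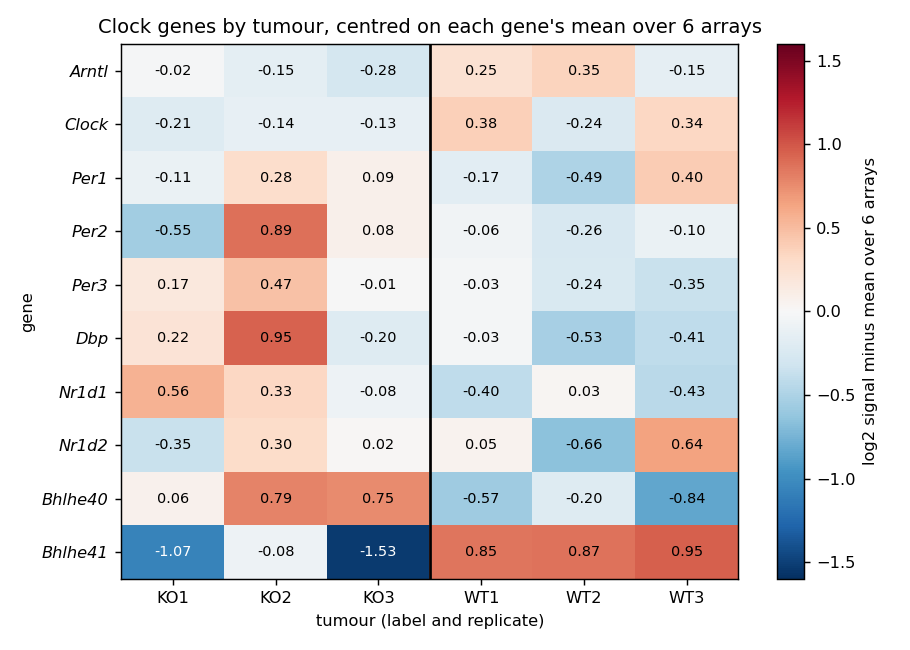
Level of each clock gene in each tumour minus the gene's mean over the 6 arrays (colour and printed number, log2); columns are labelled knockout tumours 1 to 3 and labelled wild-type tumours 1 to 3. Labelled knockout tumour 2 holds the highest value of Per2, Per3, Dbp and Bhlhe40 (0.89, 0.47, 0.95 and 0.79).

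Other clock genes were taken from a list of 21, of which 18 were tested. Of these, 11 had a higher mean in the labelled knockout tumours and 7 a lower one, with a median difference of 0.15, and 0 passed in limma over all genes, with 2 at an unadjusted p under 0.05 against 13.2% of all genes. Those 2 were Rora and Hlf, and without labelled knockout tumour 2 the count was 0. RORA is the receptor that activates Arntl through the element that the NR1D receptors repress. Rora read 5.22, 5.07 and 4.81 in labelled knockout tumours 1, 2 and 3 and 4.30, 4.63 and 3.63 in labelled wild-type tumours 1, 2 and 3. The genotypes did not overlap, and the difference was 0.84 (SE 0.28, limma adjusted p = 0.300). HLF is a D-box factor of the same family as DBP. Hlf read -0.38, -0.04 and -0.90 in labelled knockout tumours 1, 2 and 3 and -0.97, -1.38 and -1.02 in labelled wild-type tumours 1, 2 and 3, also without overlap, at a difference of 0.68 (SE 0.25, adjusted p = 0.339). Labelled knockout tumour 2 was again the highest for Hlf but not for Rora.

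The repressor gene Cry2 differed by 0.44 (limma adjusted p = 0.438) and its paralogue Cry1 by 0.16 (adjusted p = 0.728). Nfil3, which encodes a repressor at D-boxes, gave 0.31 (adjusted p = 0.603). The cell cycle kinase gene Wee1, a known clock target, gave 0.21 (adjusted p = 0.665). Ciart, which encodes another repressor of the loop, gave 0.20 (adjusted p = 0.666), and Nono, an RNA-binding partner of the PER proteins, gave -0.16 (adjusted p = 0.725). The probes of Npas2, Rorb and Fbxl21 were not tested: all were well above background on 0 arrays.

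Outside signals that reach Per1, Bhlhe40 and Bhlhe41 were followed with lists of genes that hypoxia and glucocorticoids induce. All 15 hypoxia genes were tested. In the labelled knockout tumours 10 were higher and 5 lower, by a median of 0.20, 0 passed over all genes and 5 had an unadjusted limma p under 0.05, where 13.2% of all genes did. The prolyl hydroxylase gene Egln3 read 4.93, 5.57 and 5.24 in labelled knockout tumours 1, 2 and 3 and 3.84, 4.44 and 4.26 in labelled wild-type tumours 1, 2 and 3, a difference of 1.07 (SE 0.24, adjusted p = 0.201). The glucose transporter gene Slc2a1 differed by 0.76 (adjusted p = 0.246), and the carbonic anhydrase gene Car9 went the other way, by -1.03 (adjusted p = 0.267). Of 15 glucocorticoid-induced genes 5 were higher and 10 lower, by a median of -0.20, with 0 passing and 1 at an unadjusted p under 0.05, against the same 13.2% of all genes. That gene was Pdk4, a kinase gene that shuts off glucose oxidation, at -2.67 (adjusted p = 0.294; 1 of 3 labelled knockout arrays well above background). The metallothionein gene Mt2 and the kinase gene Sgk1 differed by -0.32 (adjusted p = 0.537) and -0.85 (adjusted p = 0.547). The part of either list in the clock genes' values was not tested.

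RNA levels of some cell type markers differed between the genotype labels in the same arrays. Keratinocyte markers were high in all 6 tumours: the basal keratin genes Krt5 and Krt14 read 9.35 to 9.62 and 9.68 to 9.96 in labelled knockout tumours and 9.23 to 9.55 and 9.63 to 9.83 in labelled wild-type tumours. The summed level of 15 keratinocyte genes was 5928 to 6226 times the 75th percentile signal in labelled knockout tumours and 5073 to 5445 times in labelled wild-type tumours, with 12 genes higher and 3 lower. Of 16 tested skeletal muscle genes 16 were lower in labelled knockout tumours, 2 of them past the threshold, Myh4 and Myh8, against 0.162% of all genes (median difference -4.53, or -3.88 with genes below background at their bound). Both of these myosin genes, and 8 of the 16 in all, were well above background in 0 of 3 labelled knockout tumours and so entered the test only through the labelled wild-type tumours. The summed level of the 17 listed muscle genes was 3.57 to 8.94 in labelled knockout tumours, where 6 to 8 of them were well above background, against 22.3 to 383.9 in labelled wild-type tumours. The muscle creatine kinase gene Ckm was well above background in 0 of 3 labelled knockout tumours, while the muscle actin gene Acta1 was so in all 6 tumours.

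In the fat and skin appendage lists most tested genes also had lower values in labelled knockout tumours. The ranges of the summed levels, in which the brightest genes weigh most, overlapped between genotypes. Mean log2 levels of the fat list did not overlap, at -2.45 to -2.31 in labelled knockout and -0.07 to 1.15 in labelled wild-type tumours. Those of the sebaceous gland list did not overlap either, at -0.56 to 0.15 against 0.44 to 3.06. For hair follicle they overlapped, at -2.84 to -0.77 against -1.51 to 2.23. Of 11 tested adipocyte genes 9 were lower and 3 passed, against 0.162% of all genes (median -3.62, or -2.45 with such genes at their bound). The 3 were Adipoq, Cfd and Car3, all well above background in 0 of 3 labelled knockout tumours, so that they too entered the test only through the labelled wild-type tumours. Summed over 12 listed genes the level was 177.8 to 465.3 in labelled knockout tumours and 305.7 to 505.4 in labelled wild-type tumours. The lipid droplet gene Plin1, which was not tested, was well above background in 0 of 3 labelled knockout and 2 of 3 labelled wild-type tumours. Hair follicle genes, of which 6 of 15 tested were well above background on every array, were lower in 13 of 15 cases (median -2.20), with summed levels of 29.8 to 46.8 in labelled knockout and 31.3 to 354.0 in labelled wild-type tumours. The hair follicle keratin genes Krt71 and Krt25 differed by -6.56 and -5.96 without overlap (limma adjusted p = 0.228 and 0.236). They were well above background in 2 and 1 of 3 labelled knockout tumours and in all labelled wild-type tumours. Sebaceous gland genes were lower in 11 of 14 cases (median -2.33, or -1.90 at the bound). Their summed levels were 78.0 to 95.8 in labelled knockout and 75.3 to 295.0 in labelled wild-type tumours. Of the 14, 13 were well above background on every array, Awat2 among them, while Mc5r was so in 0 of 3 labelled knockout tumours. In these last 2 lists 0 genes passed.

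Labelled wild-type tumour 2, in which Clock, Per1, Dbp and Nr1d2 were lowest at the probes taken, had the highest mean of all 4 lists. These means were 3.47 for muscle, 1.15 for fat, 2.23 for hair follicle and 3.06 for sebaceous gland. Labelled knockout tumour 2, in which Per2, Per3, Dbp and Bhlhe40 were highest, had a hair follicle mean of -0.77. Labelled knockout tumours 1 and 3 had -2.84 and -2.72. Its keratinocyte, fibroblast and leukocyte means (7.20, 3.53 and 1.17) were the highest of all tumours, and its muscle and fat means (-4.14 and -2.45) the lowest. Fibroblast genes were higher in labelled knockout tumours in 8 of 10 cases (median 0.49), leukocyte genes in 9 of 11 (median 0.22) and endothelial genes in 1 of 7 (median -0.19), and 0 of these passed. Without labelled wild-type tumour 2 the difference of Bhlhe40 was 1.24 and that of Dbp 0.54. The part of these marker levels in the clock genes' values was not tested.

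**Figure D4:**
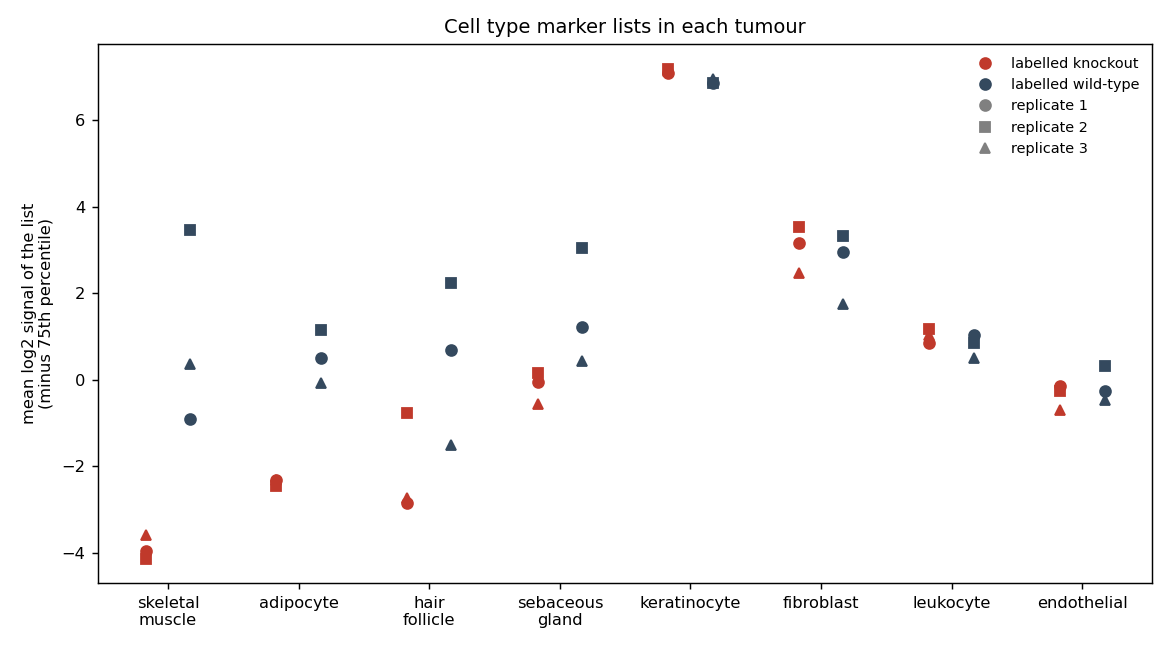
Mean log2 signal (minus the array's 75th percentile) of 8 lists of cell type markers in each tumour, with labelled knockout left of labelled wild-type in each column and symbols for the replicate numbers. Muscle, adipocyte and sebaceous gland lists lie lower in all 3 labelled knockout tumours, and the keratinocyte list lies slightly higher. The hair follicle list overlaps between genotypes.

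The genes whose profile over the 6 tumours came nearest to that of Dbp, by the root mean square difference of centred log2 values among 14231 named genes well above background on all arrays, were Kcnj15, Cd72, Hlf, Npw and 1520401A03Rik, at 0.11, 0.13, 0.15, 0.18 and 0.18. The median gene lay at 0.54. Hlf, the relative of Dbp, ranked 3 among all these genes. Nearest to Arntl, which varied little, were Ptpn21, Mettl9, Hmgcs1, Ndufaf3 and Tmod2, at 0.05, 0.06, 0.06, 0.06 and 0.07, with the median gene at 0.35. With 6 tumours and so many candidates, close profiles are found for any gene, and these names are a description only.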

How the data were processed

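Gene expression was measured in 6 tumours on one-colour Agilent arrays (Cy3, 0.2 ug of RNA per the labels). The spot brightness deposited by the authors is intensity on a linear scale, background-subtracted and spatially detrended per the file headers, and, per the submitters' processing notes, it comes from Agilent Feature Extraction 10.7.1.1. The authors' series value table, used as an alternative, holds log2 values; no source used here gives their normalization. Its columns had a median of 4.97 and a maximum of 18.58 each, followed their own arrays in direction and were not centred by gene. Its differences lay close to those with quantile normalization (for Nr1d2, 0.0034 and 0.0029), so these 2 alternatives are not independent. Probe coordinates in the files are on build mm9.

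Processed signals were divided by the 75th percentile of the array's non-control probes and put on a log2 scale. Outlier-flagged spots were dropped, which cost the clock genes 0 values, and repeat spots averaged; saturation was seen in 0 spots. Testing was limited to probes well above background on all arrays of at least 1 genotype (29723 of 56605 probes, 18 of the 23 clock probes). The brightest tested probe stood for a gene, which left 19752 genes. Probes were named through RefSeq (GRCm38.p6, names only): 32994 by accession, 10224 by symbol, 520 by synonym, and 12867 kept the array's name. Genotypes were compared with limma 3.58.1 (lmFit, eBayes) in R 4.3.3, Benjamini-Hochberg adjustment and a threshold of 0.05. Other probes of a gene were adjusted over all tested probes. The fit was tested on simulated data, where 14 of 50 genes changed by 1 in log2 passed the threshold, and 38 of 50 changed by 2.

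All probes of the 10 clock genes are named; of the lists of other clock genes, the 8 with the smallest p, of which 1 is not reported here (and Cry1, chosen after its value was seen); of the hypoxia and glucocorticoid lists, the 3 with the smallest p; of the cell type lists, defining markers, chosen after their values were seen; and the 5 genes nearest in profile to Dbp and Arntl. The clock genes, the lists and the rules were chosen with earlier results of these data known. Replicate numbers were checked for pairing. Deviations from group means correlated at r = 0.06, 0.26 and 0.14 for numbers 1, 2 and 3 across genes, which are not independent replicates. Correlations between unlike numbers are not given here, so this check cannot decide whether the numbers are pairs. The main fit did not take them as pairs. The number of arrays limits the precision. Alternatives were normexp correction (offset 50), quantile normalization, median centring, 2 other filters, the mean over probes, eBayes with a trend and robust prior, the authors' log2 values, weights per array, replicate number or slide position as a block, and each tumour left out.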

Additional observations from a re-analysis of the deposited data

How the results depend on the processing

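The 10 clock genes gave 0 calls under all 17 alternatives, and 162 of 169 differences kept their sign; Bhlhe41 has no value when only probes above background on all 6 arrays are used. The sign turned for Nr1d2 with quantile normalization (0.0029), the series value table (0.0034), slide position as a block (0.15), and without labelled knockout tumour 1 (0.15) or labelled wild-type tumour 3 (0.29), for Per2 without labelled knockout tumour 2 (-0.094) and for Per1 without labelled wild-type tumour 2 (-0.031). When a tumour was left out Nr1d2 ran between -0.36 and 0.29, Per2 between -0.094 and 0.62 and Per1 between -0.031 and 0.42. The median of the clock genes lay between -0.0097 (without labelled knockout tumour 2) and 0.33 when a tumour was left out, so its direction rests on that tumour.

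Over all genes the count past the threshold, 32, was 10 with normexp, 18 with no filter, 5 when every array had to be above background, 60 with array weights, 21 with slide position as a block and 10 to 120 when a tumour was left out. The count at unadjusted p and 2-fold, 874, was 387 with normexp, 1317 with no filter and 558 when every array had to be above background, and 802 to 1197 when a tumour was left out. With the replicate block the adjusted count was 5 and the clock genes' count stayed 0. With no filter the median of all genes was 0.19, against 0.02. The cause of these shifts was not tested. Signal limits Bhlhe41 above all, whose values sit at the floor of detection.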
